A study of Mus musculus with 2 samples.

Results

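The subunits of oxidative phosphorylation were followed across the cell types of the fetal mouse pancreas. Members were all genes whose symbols begin with Nduf followed by a, b, c, s or v and a digit, with Uqcr, with Cox4 to Cox8 or with Atp5, the genes Sdha, Sdhb, Sdhc and Sdhd, and the protein-coding genes of the mitochondrial genome. Cox6a2 and pseudogenes were left out. This gave 96 of the 27998 genes in the matrices, of which 83 lie in the nucleus and 13 on mitochondrial DNA (mt- genes). The nuclear members fall by name into complex I with 37 genes, complex II with 4, complex III with 8, complex IV with 17 and complex V with 17. The mt- members belong to complex I (7 genes), complex III (1 gene), complex IV (3 genes) and complex V (2 genes).

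Oxidative phosphorylation makes ATP in the inner mitochondrial membrane. Complexes I and II take electrons from NADH and succinate, complex III passes them to cytochrome c, complex IV hands them to oxygen, and complex V uses the proton gradient so built to make ATP. Most subunits are encoded in the nucleus and imported, whereas a few core subunits are transcribed and translated inside the mitochondrion. Secretory cells such as acinar and beta cells depend on this ATP for protein export and, in beta cells, for coupling glucose to insulin release.

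Cells came from the pancreas of C57BL/6 embryos at embryonic day 18.5, dissociated with trypsin. There was 1 library labelled knockout, named Dpy30∆P in the protocol and the series title, and 1 library labelled control, each from 1 pancreas. The labels name neither the alleles nor a Cre line for either group, and both libraries were made with the same droplet kit, which counts the 3′ ends of transcripts by unique molecular identifiers (UMIs). Per the labels the pellets were resuspended in 250 µL (knockout) and 500 µL (control).

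The knockout-labelled library held 4779 barcodes and 33048640 UMIs, and the control-labelled library held 3986 barcodes and 25398522 UMIs. After filters on detected genes, mt- UMIs and doublets, 3233 knockout-labelled and 2611 control-labelled cells remained. The median cell had 6631 UMIs in the knockout-labelled and 6831 in the control-labelled library. The libraries shared 27 barcodes, of which 12 were kept in both. Dpy30, a core subunit of the complexes that methylate histone H3 lysine 4 and the gene the study removed, stood at 144 CPM (UMIs per 1000000 UMIs of the cells summed) in knockout-labelled and 113 CPM in control-labelled cells. Summed over all kept cells, whose mix of classes differs between the libraries, its tags therefore do not bear out the label. Its level per class is not given here. The sources used here do not give the deleted part, and 3′ tags outside it would check nothing. Xist had 46550 UMIs in knockout-labelled cells and 1 in control-labelled cells, and the Y-linked gene Ddx3y had 0 and 1570, so that sex and genotype cannot be told apart. The X-linked members are Ndufb11, Ndufa1 and Cox7b. With 1 library per group there is no replicate check and no test. Ranges in brackets after a ratio are exact conditional binomial intervals (95%) and hold counting error alone. The members were called higher or lower where their CPM was at least 25% above or 20% below that of the other library and the class had at least 100 UMIs of them over both libraries.

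Clustering gave 27 clusters, and 8 cell classes named from markers had at least 50 cells in both libraries. The acinar-like class held 757 knockout-labelled and 109 control-labelled cells, the ductal-like class 390 and 513, and the endocrine-like class 229 and 364. Outside the epithelium, mesenchymal-like cells numbered 1221 and 953, mesothelial-like cells 187 and 215, endothelial-like cells 118 and 179, those called pericyte-like and smooth muscle-like 50 and 95, and macrophage-like and myeloid-like cells 108 and 87. All 17 acinar markers measured were highest in acinar-like cells in both libraries, as were all 15 endothelial and all 14 macrophage markers in theirs, 14 of 19 ductal, 54 of 63 endocrine and 15 of 20 mesenchymal markers. The same marker lists named the clusters, so these counts describe the classes and cannot check their names. The members were kept out of the genes used for clustering. Differences between classes are given as a description, with no test.

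Epithelial cells gave the nuclear subunits the largest share of their transcripts. In knockout-labelled cells the 83 nuclear members took 4.01% of all UMIs in acinar-like, 3.42% in ductal-like, 3.24% in endocrine-like and 3.11% in pericyte-like and smooth muscle-like cells, and 2.33% in mesenchymal-like cells, the lowest of the 8 classes. The control-labelled library gave the same order at both ends, with 3.24% in acinar-like, 3.13% in ductal-like, 2.92% in endocrine-like, 2.88% in pericyte-like and smooth muscle-like and 2.29% in mesenchymal-like cells. Endothelial-like, mesothelial-like and macrophage-like and myeloid-like cells lay between 2.51% and 2.72% in both libraries. Acinar-like cells were thus above mesenchymal-like cells in either library, although digestive enzymes filled 13.4% of the knockout-labelled and 20.7% of the control-labelled acinar UMIs and so lowered every other share there. With the total taken without mt- and secretory genes, endocrine-like cells stood above ductal-like cells in both libraries. The shares were then 3.92% and 3.56% in knockout-labelled and 4.15% and 3.26% in control-labelled cells. Acinar-like cells stayed first, at 4.81% in knockout-labelled and 4.23% in control-labelled cells.

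The mt- members did not follow the order of the nuclear members. They took 3.32% of UMIs in knockout-labelled mesothelial-like cells, 3.29% in pericyte-like and smooth muscle-like cells and 3.17% in endothelial-like cells, but 2.80% in acinar-like and 2.78% in ductal-like cells. In control-labelled cells pericyte-like and smooth muscle-like cells led with 3.60%, followed by mesothelial-like cells with 3.39% and endothelial-like cells with 3.27%, and acinar-like cells had 2.36%. This order depends on the secretory load, since hormone genes filled 13.2% of the knockout-labelled and 26.1% of the control-labelled UMIs of endocrine-like cells. With the total taken without mt- and secretory genes, endocrine-like cells led the mt- share in both libraries, at 3.75% in knockout-labelled and 4.05% in control-labelled cells, ahead of mesothelial-like (3.51% and 3.54%) and of pericyte-like and smooth muscle-like cells (3.45% and 3.78%). The mt- share also enters the filter on cell quality, which kept cells with at most 10% mt- UMIs. Without any such limit the mt- share of barcodes with at least 500 genes was 2.87% instead of 2.74% in the knockout-labelled library and 2.93% instead of 2.80% in the control-labelled library.

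**Figure D1:**
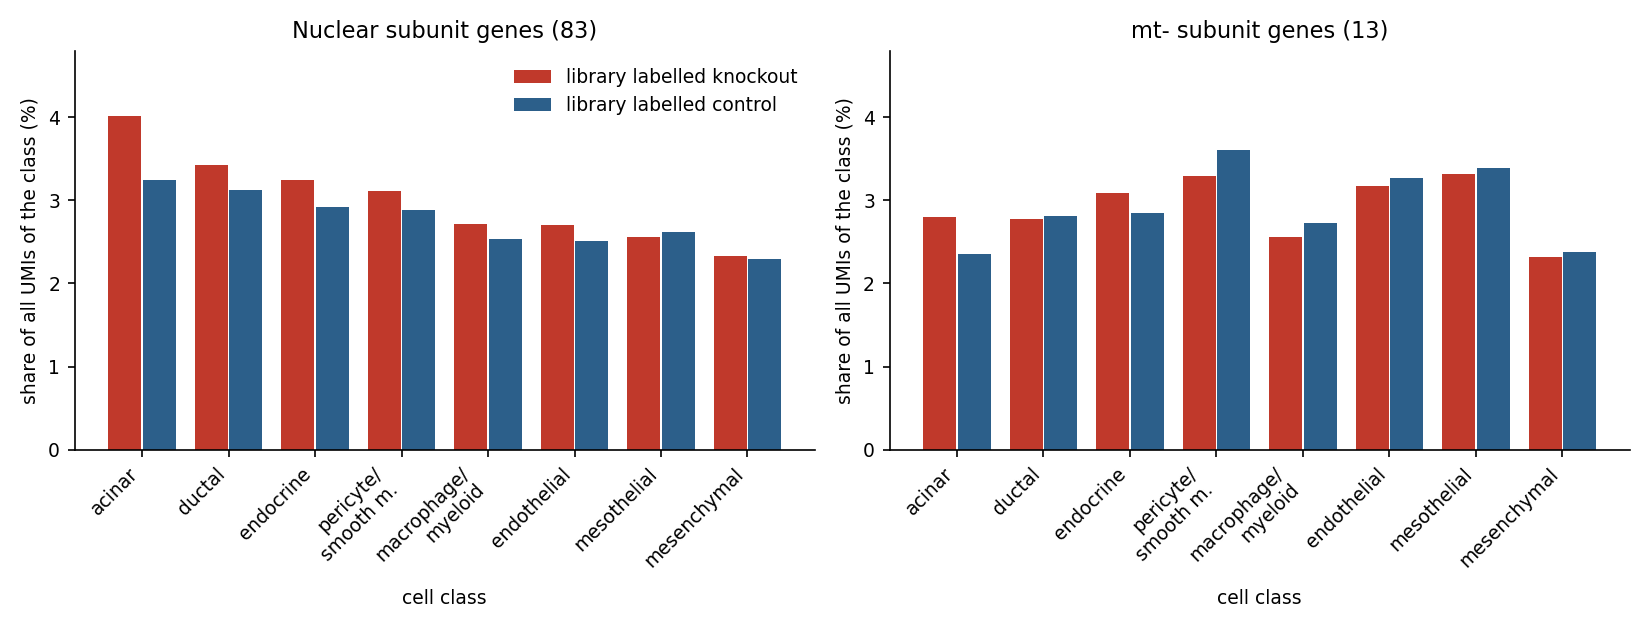
Share of all UMIs of a cell class (y axis, %) that the 83 nuclear (left) and the 13 mt- (right) subunit genes take, by class (x axis), in the library labelled knockout (red, left bar) and the library labelled control (blue, right bar). The nuclear share is highest in acinar-like cells (4.01% and 3.24%) and lowest in mesenchymal-like cells (2.33% and 2.29%), while the mt- share of all UMIs is highest in mesothelial-like (3.32%) and in pericyte-like and smooth muscle-like cells (3.60%); without mt- and secretory genes in the total, endocrine-like cells lead it (3.75% and 4.05%).

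Most individual subunits were higher in each epithelial class than in mesenchymal-like cells, but fewer had the same highest or lowest class as the summed nuclear share. Against mesenchymal-like cells of the knockout-labelled library, 62 of 78 nuclear members with at least 100 UMIs were higher in acinar-like cells, where 26.6% of all genes were, and 66 of 78 were higher in ductal-like cells, where 44.2% were. Endocrine-like cells had 56 of 77 higher (40.9% of all genes), while pericyte-like and smooth muscle-like cells had 41 of 76 (27.4%). In the control-labelled library 48 of 76 members were higher in acinar-like cells (16.0% of all genes), 52 of 78 in ductal-like cells (43.1%), 43 of 77 in endocrine-like cells (33.8%) and 31 of 76 in pericyte-like and smooth muscle-like cells (24.5%). Of the 80 nuclear members with at least 100 UMIs in all kept cells, 21 were highest in acinar-like cells in both libraries, 18 in ductal-like cells and 7 in pericyte-like and smooth muscle-like cells. Mesenchymal-like cells were lowest for 18 members in both libraries. The highest and lowest classes were not counted over all genes, so these counts describe the members alone.

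Several paralogous subunits departed from the order of the classes in the summed nuclear share. The 3′ tags are 1 per transcript, so levels of genes were compared without a correction for length. Ndufa4 is named after complex I but is known as a component of complex IV, and its relative Ndufa4l2 is a hypoxia-induced gene known to lower complex I activity and a common marker of pericytes. Ndufa4l2 reached 1124 CPM in knockout-labelled and 1341 CPM in control-labelled pericyte-like and smooth muscle-like cells, where Ndufa4 had 349 and 207 CPM. This was the only class of the 8 in which Ndufa4l2 stood above Ndufa4, and Ndufa4l2 is among the leading genes of its cluster. Mesenchymal-like cells had 155 and 174 CPM of Ndufa4l2 beside 429 and 372 CPM of Ndufa4, and mesothelial-like cells had 132 and 272 CPM beside 638 and 574 CPM. In acinar-like cells Ndufa4l2 had 9 UMIs in the knockout-labelled library and 0 in the control-labelled library, and macrophage-like and myeloid-like cells had 0 in both, at limits of 4.67 and 5.67 CPM (3 UMIs).

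Cox4i2 is the hypoxia-responsive isoform of the regulatory complex IV subunit 4, and Cox4i1 is the common isoform. Cox4i2 had 119.6 CPM in knockout-labelled and 112 CPM in control-labelled pericyte-like and smooth muscle-like cells. In the other 7 classes it lay between 0 and 5.90 CPM in both libraries. Cox4i1 was present throughout, from 1064 CPM in mesenchymal-like to 1808 CPM in ductal-like cells of the knockout-labelled library and from 979 CPM in endocrine-like to 1619 CPM in ductal-like cells of the control-labelled library. In pericyte-like and smooth muscle-like cells Cox4i2 therefore added to a level of Cox4i1 (1363 and 1284 CPM) that was within the range of the other classes.

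Cox6b2, known mainly as the testis isoform of a complex IV subunit that faces the intermembrane space, was highest in mesothelial-like cells, at 166 CPM in knockout-labelled and 188 CPM in control-labelled cells. Mesenchymal-like cells had 73.8 and 68.4 CPM and ductal-like cells 53.7 and 71.3 CPM. Its common relative Cox6b1 had 631 and 675 CPM in mesothelial-like cells. The complex IV isoforms Cox7b2, Cox8b and Cox8c had under 100 UMIs in all kept cells, and Cox8c had none in any of the 8 classes.

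Cox7a1 is the complex IV isoform typical of heart and skeletal muscle. Among the classes it was highest in acinar-like cells, at 64.4 CPM in knockout-labelled and 34.9 CPM in control-labelled cells. In the control-labelled library its exact Poisson interval in acinar-like cells was 24.3 to 48.5 CPM. That range only just overlapped the one of endocrine-like cells (16.7 to 25.5 CPM). It overlapped more with that of macrophage-like and myeloid-like cells (7.77 to 32.3 CPM, from 9 UMIs). Overlap of separate intervals does not show equal levels, and the difference between classes was not tested. The endocrine-like cluster led by Ins2, given below, came close to the acinar-like level in the control-labelled library. Macrophage-like and myeloid-like cells stood above ductal-like cells in both libraries. Ductal-like cells had 13.6 and 10.1 CPM, endocrine-like cells 8.26 and 20.7 CPM and mesenchymal-like cells 1.13 and 1.24 CPM. The widespread isoform Cox7a2 had 879 and 761 CPM in acinar-like cells. Among the 3 genes for the same ring subunit of ATP synthase, Atp5g1 was highest in acinar-like cells: it had 1302 and 1332 CPM in acinar-like cells, against 507 and 501 CPM in mesenchymal-like cells and 342 and 309 CPM in endothelial-like cells. Atp5g2 was highest in ductal-like cells in both libraries, with 872 and 829.8 CPM, and Atp5g3 ranged from 188 to 425 CPM.

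**Figure D2:**
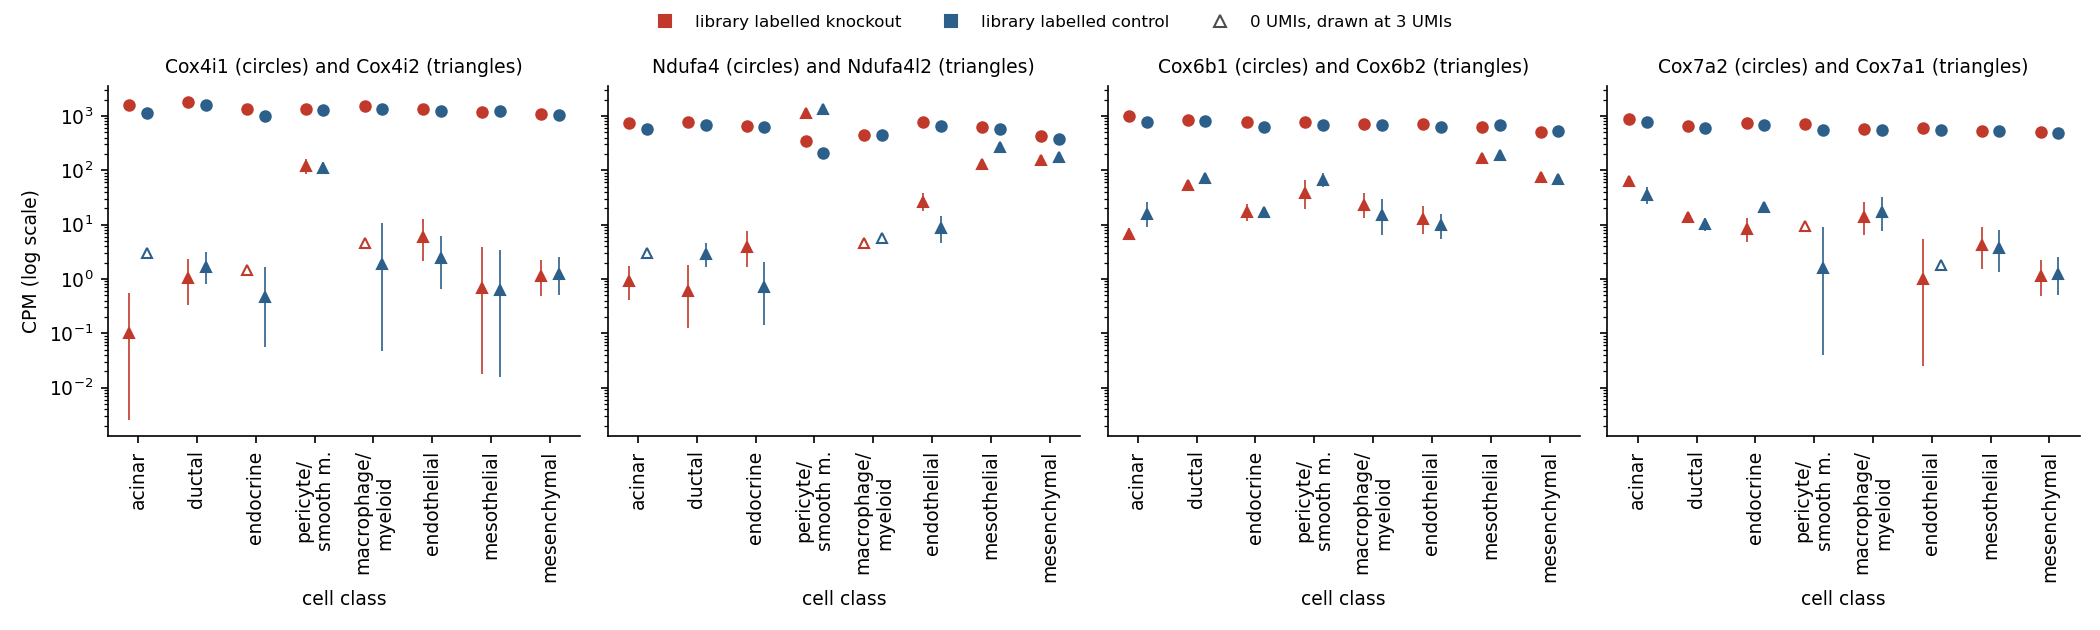
Levels of 4 pairs of related subunits (y axis, CPM on a log scale) by cell class (x axis) in the library labelled knockout (red, left) and the library labelled control (blue, right), with exact Poisson 95% intervals. Open symbols mark 0 UMIs and are drawn at 3 UMIs. Ndufa4l2 (1124 and 1341 CPM) and Cox4i2 (119.6 and 112 CPM) peak in pericyte-like and smooth muscle-like cells, Cox6b2 (166 and 188 CPM) in mesothelial-like cells and Cox7a1 (64.4 and 34.9 CPM) in acinar-like cells.

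The study's own comparison sets the library labelled knockout against that labelled control. Acinar-like cells had the largest difference in nuclear subunits: 4.01% of UMIs in knockout-labelled and 3.24% in control-labelled cells, a ratio of 1.24 (lower bound 1.22). Per cell, the median share was 3.82% in knockout-labelled and 2.97% in control-labelled cells, and the range between quartiles was 3.29% to 4.38% and 2.55% to 3.57%, so the cells overlap. Of the 76 members with at least 100 UMIs, 39 (51.3%) were higher in knockout-labelled cells and 0 lower, where 38.6% of all genes were higher and 12.4% lower. The median log2 ratio was 0.33 for the members and 0.19 for all genes. The depth differed too, with a median of 11625 UMIs per knockout-labelled and 6073 UMIs per control-labelled acinar-like cell, and so did the load of digestive enzymes (13.4% and 20.7%). With the total taken without mt- and secretory genes, the ratio was 1.14, and 21 of 76 members were higher, against 29.4% of all genes. Scaled by the median gene, 14 of 76 were higher, against 25.2%. Under both scalings the members' share higher was thus below that of all genes, while the ratio of their summed UMIs stayed above 1 (1.14 and 1.09). Counting error alone can carry a gene with little over 100 UMIs past 25%. The counts of members and of all genes do not separate it.

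The acinar-like difference depended on a cluster of the knockout-labelled library. The cluster led by Cela1 and Reg1 held 416 knockout-labelled and 2 control-labelled cells, whereas most control-labelled acinar-like cells (91) lay in the cluster led by Ctrb1 and Pnliprp1, which had 258 knockout-labelled cells. Without the cluster led by Cela1 the nuclear ratio was 1.12 (1.11 to 1.13), from 3.58% in 341 knockout-labelled and 3.20% in 107 control-labelled cells. Then 8 of 74 members (10.8%) were higher, against 23.8% of all genes. Within the cluster led by Ctrb1 the shares were 3.34% and 3.13%, and within the third acinar-like cluster 3.98% in 83 and 3.51% in 16 cells, ratios of 1.07 (1.05 to 1.08) and 1.13 (1.10 to 1.16). A cluster mostly of 1 library may be that library and not a cell state, which cannot be told apart here.

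The members of complex I, the NADH dehydrogenase, included 19 of 36 (52.8%) that were higher in knockout-labelled acinar-like cells. This count and those of the other complexes stand beside 38.6% of all genes. The highest ratio was that of Ndufb10, an accessory subunit of the membrane arm, with 331 CPM in knockout-labelled and 207 CPM in control-labelled cells and a ratio of 1.60 (1.39 to 1.85). It kept 1.39 (1.19 to 1.63) without the cluster led by Cela1. Ndufv1, the core subunit that binds NADH, had 116 and 75.7 CPM, a ratio of 1.53 (1.21 to 1.96), and 1.52 (1.18 to 1.98) without that cluster. Ndufb5 had 435 and 286 CPM, a ratio of 1.52, which was 1.19 without that cluster. Ndufs7, which carries the last iron-sulphur cluster before ubiquinone, and Ndufa12 were at 0.915 (0.783 to 1.07) and 0.929 (0.823 to 1.05), so neither differed beyond counting error.

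Complex II is also the succinate dehydrogenase of the citric acid cycle. Its 4 genes together had 0.0467% of UMIs in knockout-labelled and 0.0411% in control-labelled acinar-like cells, a ratio of 1.14 (1.03 to 1.26), and 1 of the 4 was higher. That was Sdha, the flavoprotein that oxidises succinate, at 76.3 CPM in knockout-labelled and 57.8 CPM in control-labelled cells, a ratio of 1.32 (1.01 to 1.76). Sdhd, a membrane anchor, had 70.4 and 73.7 CPM, a ratio of 0.956 (0.751 to 1.23).

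In complex III 4 of 8 genes (50%) were higher in knockout-labelled acinar-like cells and 0 lower. Uqcrh, the hinge protein beside cytochrome c1, had 914 CPM in knockout-labelled and 609 CPM in control-labelled cells, a ratio of 1.5 (1.38 to 1.63). Uqcrh was above 1 in every acinar-like, ductal-like and endocrine-like cluster. Among those with at least 15 cells in both libraries it ran from 1.09 (1.03 to 1.16) in the ductal-like cluster led by Spp1 and Clu to 1.35 (1.11 to 1.66) in the acinar-like cluster led by Pnliprp1. Uqcr11, a small accessory subunit, had 1079.9 and 743 CPM, a ratio of 1.45 (1.35 to 1.57), which was 1.13 (1.04 to 1.22) without the cluster led by Cela1.

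In complex IV, cytochrome c oxidase, 8 of 12 genes (66.7%) were higher in knockout-labelled acinar-like cells. Cox4i1 had 1599.5 CPM in knockout-labelled and 1136 CPM in control-labelled cells, a ratio of 1.41 (1.33 to 1.5), which was 1.17 (lower bound 1.10) without the cluster led by Cela1. Cox7a2l had 433 and 283 CPM, a ratio of 1.53 (1.36 to 1.73), and 1.19 (1.03 to 1.37) without that cluster. Cox7a1 had the highest ratio of all members, 1.85 (1.31 to 2.68), but only 35 UMIs in the control-labelled library. Its direction turned without the cluster led by Cela1: 19.3 CPM in knockout-labelled and 28.4 CPM in control-labelled cells, a ratio of 0.682 (0.431 to 1.11) from 68 and 27 UMIs. In the cluster itself it had 89.0 CPM in the 416 knockout-labelled cells and 154 CPM in the 2 control-labelled cells (8 UMIs).

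Complex V, the ATP synthase, held 7 of 16 genes (43.8%) that were higher in knockout-labelled acinar-like cells, near the share of all genes. Atp5d, the delta subunit of the central stalk, had 536 CPM in knockout-labelled and 347 CPM in control-labelled cells, a ratio of 1.55 (1.39 to 1.73), and 1.29 (1.14 to 1.46) without the cluster led by Cela1. Atp5g2, a gene for the ring subunit, stood at 546 and 645 CPM, a ratio of 0.847 (0.780 to 0.920) that did not pass the threshold, and was level without that cluster, at 639.7 and 639 CPM. Atp5sl, which is named after complex V but is not a subunit of it, had 116 and 7 UMIs and a ratio of 1.67 (0.785 to 4.24), so it did not differ beyond counting error.

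**Figure D3:**
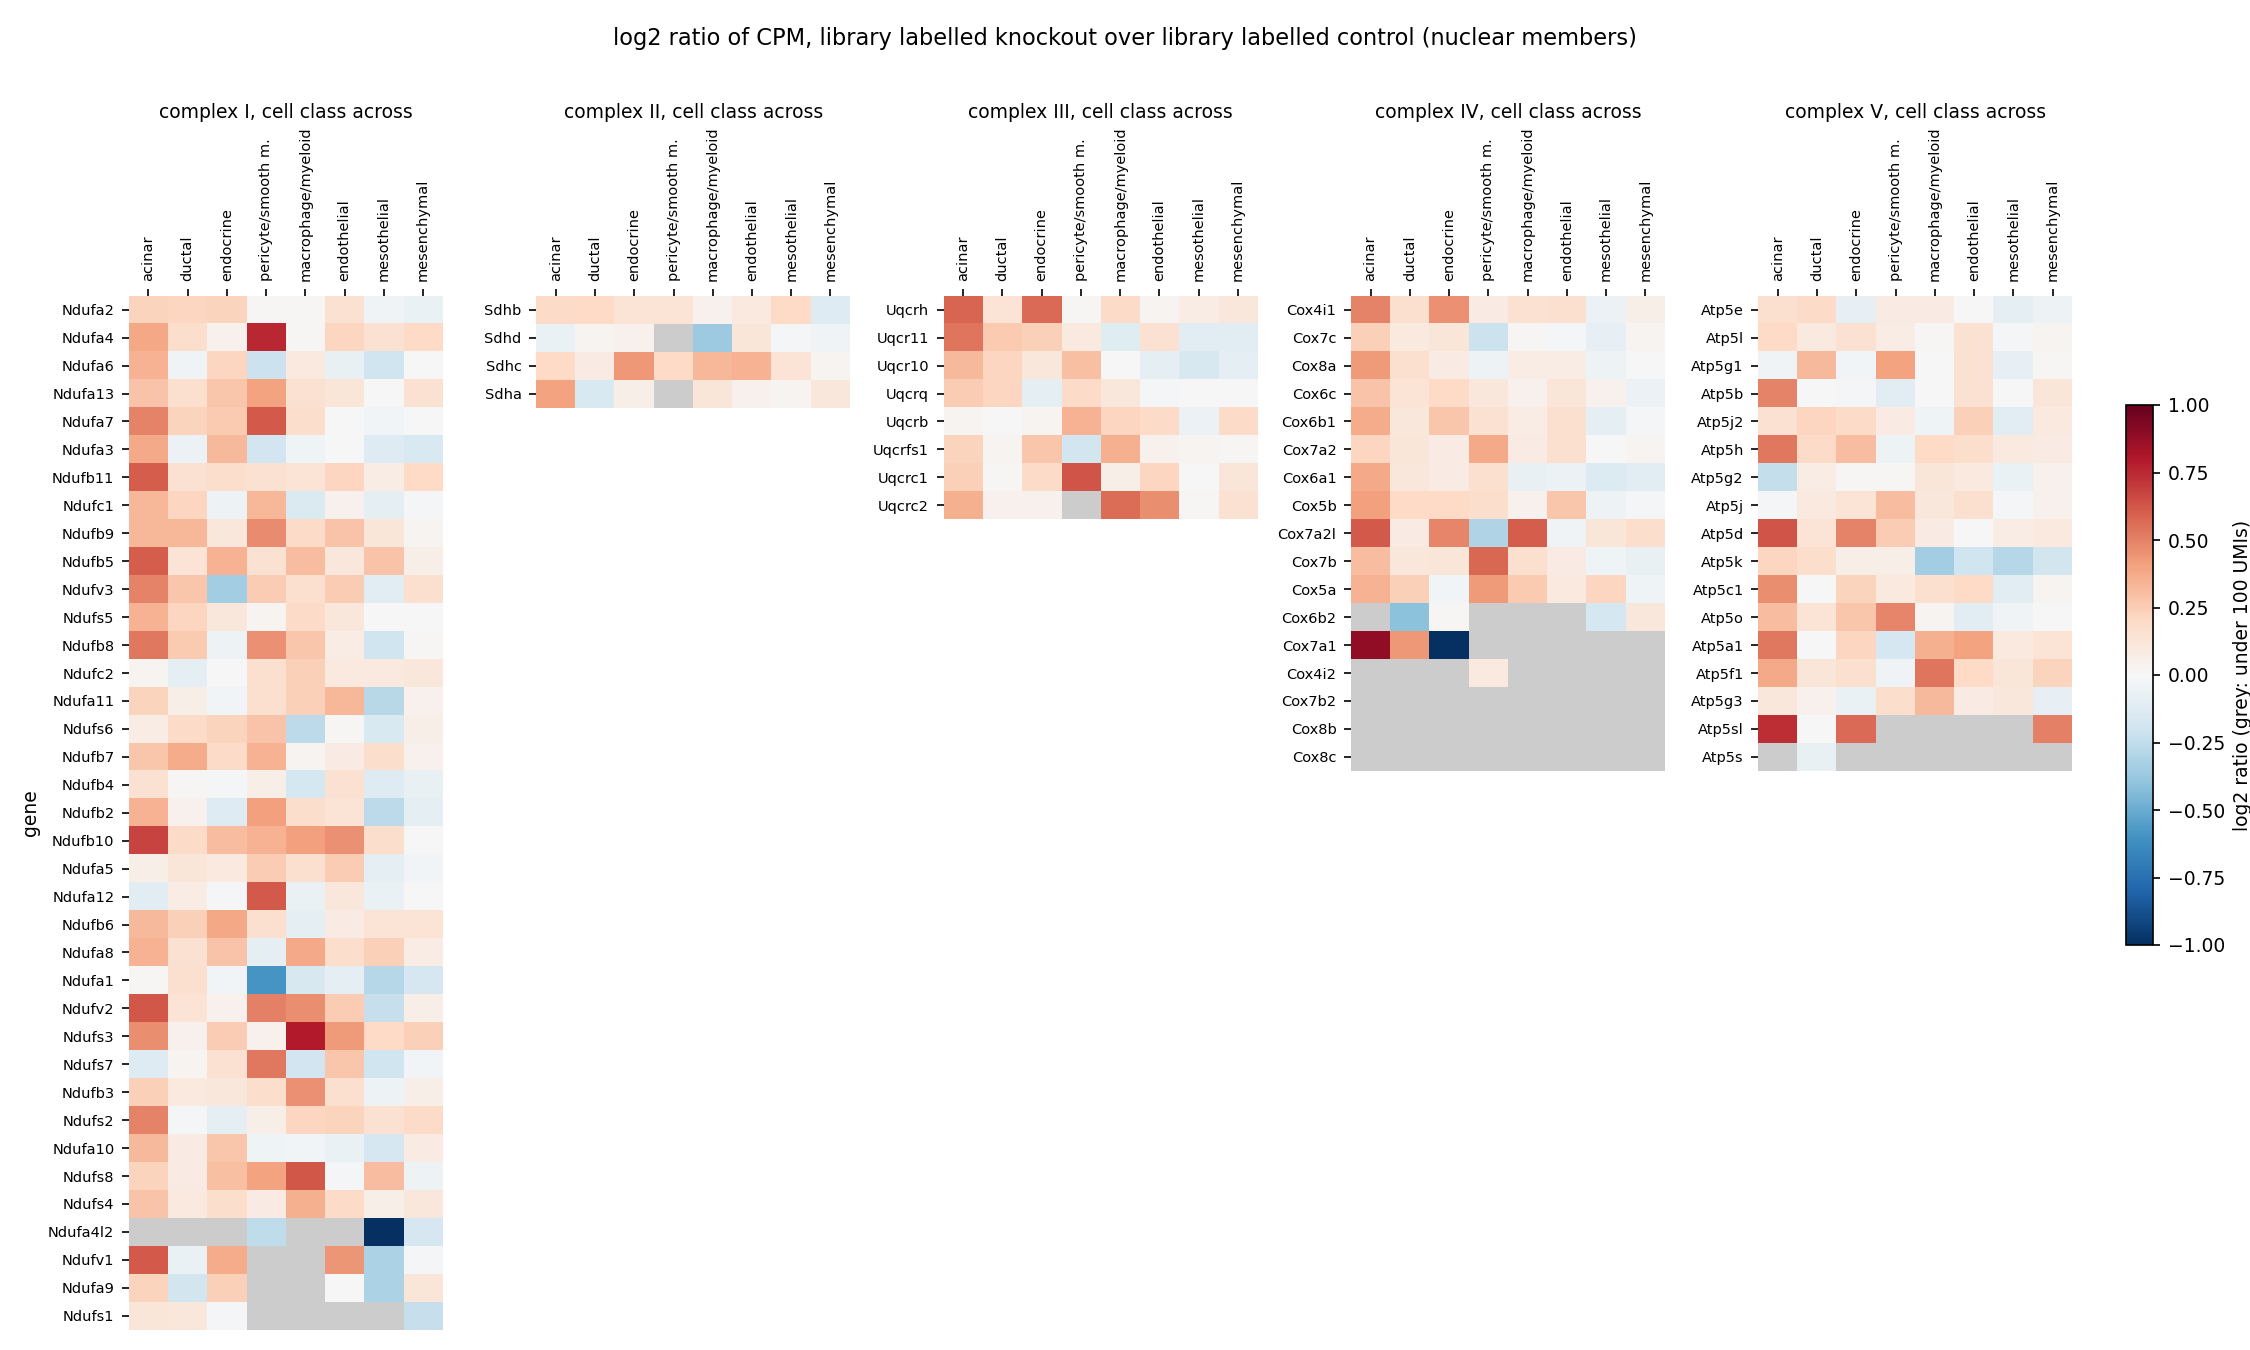
Log2 ratio of CPM, library labelled knockout over library labelled control (colour, from -1 in blue to 1 in red; grey, under 100 UMIs in the class), for the 83 nuclear members (rows, by complex and falling UMIs) in 8 cell classes (columns). Acinar-like cells have 39 members at least 25% higher and 0 at least 20% lower, mesenchymal-like cells 1 and 0, and Ndufa4l2 in mesothelial-like cells and Cox7a1 in endocrine-like cells are the darkest blue.

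Endocrine-like cells gave 3.24% of UMIs to the nuclear members in the knockout-labelled library and 2.92% in the control-labelled library, a ratio of 1.11 (1.10 to 1.12). Of 77 members 10 were higher and 2 lower, where 39.7% of all genes were higher and 7.82% lower, so the members' share higher was below that of all genes. Hormone genes filled 13.2% of the knockout-labelled and 26.1% of the control-labelled UMIs of the class. With the total taken without mt- and secretory genes the ratio turned to 0.944, and scaled by the median gene it was 0.937. The cluster led by Ins2 and Ins1 held 23 knockout-labelled and 121 control-labelled cells. Within it the nuclear share was 2.65% and 2.68%, a ratio of 0.989 (0.968 to 1.01), and without it the class stood at 3.37% and 3.15%, a ratio of 1.07 (1.06 to 1.08), with 6 of 74 members higher and 0 lower (17.6% and 11.7% of all genes).

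The endocrine-like clusters are given apart. In the cluster led by Gcg, the glucagon gene of alpha cells, 67 knockout-labelled cells had 3.44% and 97 control-labelled cells 3.11%, a ratio of 1.10 (1.08 to 1.12), with 13 of 70 members higher and 3 lower, where 23.3% of all genes were higher and 12.4% lower. In the cluster led by Neurog3, the factor of endocrine progenitors, 62 and 50 cells had 3.34% and 3.31%, a ratio of 1.01 (0.987 to 1.03), with 5 of 71 members higher and 4 lower (11.9% and 15.4% of all genes). In the cluster led by Iapp and Pyy the shares were 3.33% and 3.10%, a ratio of 1.08 (1.06 to 1.10). The difference between clusters was not tested.

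Among single genes, Uqcrh had 797 CPM in knockout-labelled and 538 CPM in control-labelled endocrine-like cells, a ratio of 1.48 (1.39 to 1.58), and 1.30 (1.21 to 1.40) without the cluster led by Ins2. Atp5d had 480.1 and 339.8 CPM, a ratio of 1.41 (1.30 to 1.53). Cox7a2l had 690.5 and 493 CPM, a ratio of 1.40 (1.31 to 1.5). The ratio of Uqcrh stayed at 1.26 with the total taken without mt- and secretory genes, and those of Atp5d and Cox7a2l were then 1.20 and 1.19. Ndufv3, a small subunit at the NADH-binding tip of complex I, lay lower, with 373 CPM in knockout-labelled and 474 CPM in control-labelled cells, a ratio of 0.787 (0.723 to 0.856), which was 0.801 (0.722 to 0.887) without the cluster led by Ins2. It was lower in the clusters led by Iapp and by Gcg, at 0.786 (0.669 to 0.922) and 0.762 (0.642 to 0.902), and not in that led by Neurog3, at 1.19 (0.93 to 1.52). Cox7a1 had 17 UMIs and 8.26 CPM in knockout-labelled and 89 UMIs and 20.7 CPM in control-labelled cells, a ratio of 0.398 (0.222 to 0.674). Of those control-labelled UMIs 69 came from the cluster led by Ins2, at 32.9 CPM against 5.38 CPM (2 UMIs) in the knockout-labelled cells of that cluster, and without it Cox7a1 was at 0.975 (0.465 to 2.00).

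**Figure D4:**
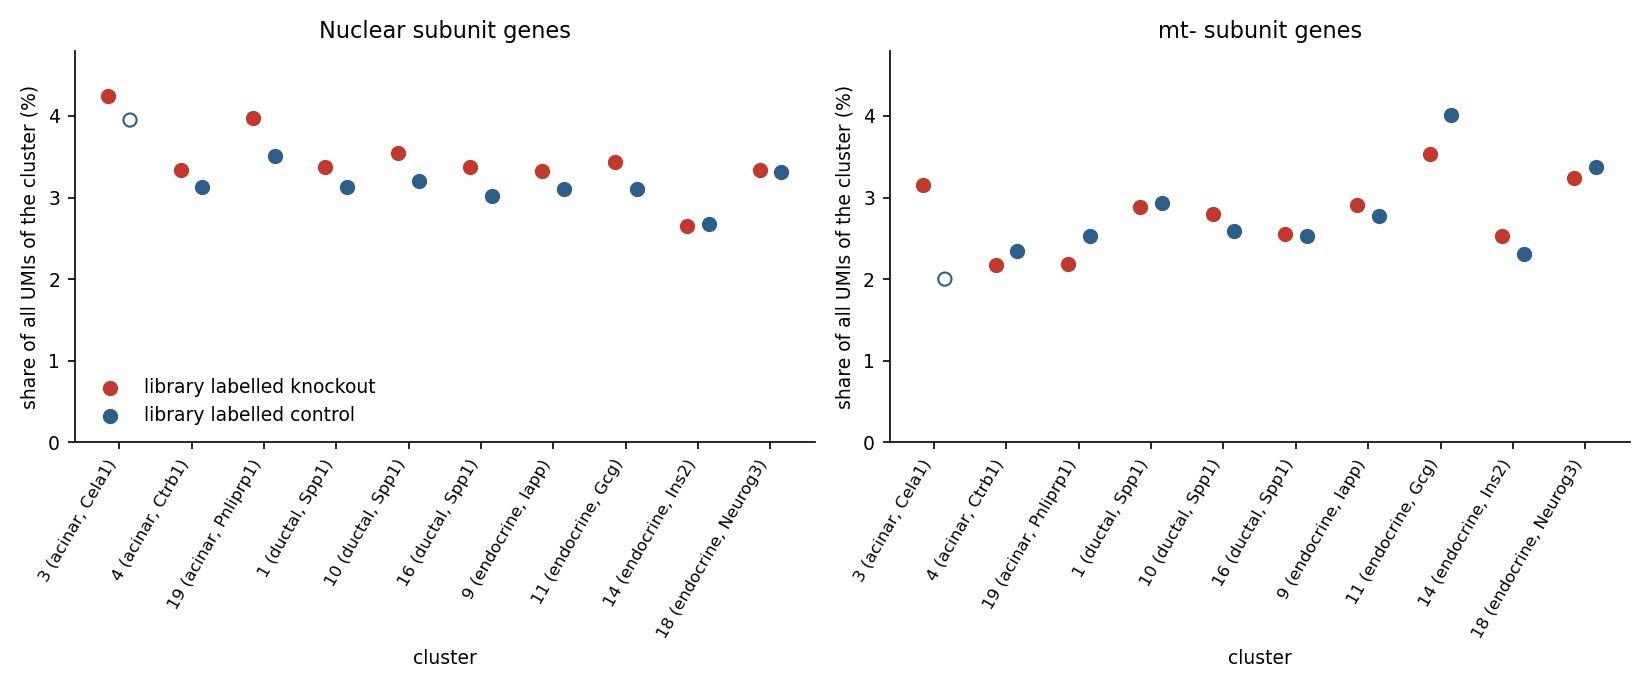
Share of all UMIs (y axis, %) taken by the nuclear (left) and mt- (right) subunit genes in each acinar-like, ductal-like and endocrine-like cluster (x axis, with the leading gene), in the library labelled knockout (red) and the library labelled control (blue); open circles have under 15 cells. The nuclear share is higher in the knockout-labelled cells of each cluster but that led by Ins2 (2.65% and 2.68%). In the cluster led by Neurog3 the nuclear difference is within counting error. Both shares of the cluster led by Cela1 (mt- share 3.15% in 416 knockout-labelled cells) have only 2 control-labelled cells beside them.

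Ductal-like cells, which were of similar depth in both libraries, had 3.42% of UMIs in nuclear members in the knockout-labelled and 3.13% in the control-labelled library, a ratio of 1.09 (1.08 to 1.10). Its 3 clusters stood at 1.08 (1.07 to 1.09), 1.11 (1.09 to 1.12) and 1.12 (1.10 to 1.14). The difference was spread thinly: 65 of 78 members had a ratio above 1, but 4 (5.13%) were called higher and 1 lower, where 11.3% of all genes were higher and 10.1% lower. The median log2 ratio was 0.12 for the members and 0.03 for all genes, so ratios above 1 were common among all genes too. The share of all genes above 1 was not counted. Ndufb7, a complex I subunit of the intermembrane space side, had 331 CPM in knockout-labelled and 256 CPM in control-labelled cells, a ratio of 1.29 (1.20 to 1.39), and Ndufb9 had 404 and 319.7 CPM, a ratio of 1.26 (1.18 to 1.35). Cox6b2 was lower, at 53.7 CPM in knockout-labelled and 71.3 CPM in control-labelled cells, a ratio of 0.753 (0.643 to 0.880).

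Mesenchymal-like cells, which surround the epithelium and made up the largest class, were nearly level: 2.33% in knockout-labelled and 2.29% in control-labelled cells, a ratio of 1.02 (1.01 to 1.02), with 1 of 77 members higher and 0 lower, where 8.27% of all genes were higher and 11.5% lower. The 1 was Atp5sl, from 64 and 36 UMIs. Mesothelial-like cells had 2.56% and 2.62%, a ratio of 0.975 (0.961 to 0.989), and 0 of 75 members higher and 1 lower, where 10.9% and 12.1% of all genes were. That gene was Ndufa4l2, with 132 CPM in knockout-labelled and 272 CPM in control-labelled cells, a ratio of 0.486 (0.408 to 0.578). Ndufa4l2 was at 0.889 (0.815 to 0.970) in mesenchymal-like cells and at 0.838 (0.738 to 0.95) in pericyte-like and smooth muscle-like cells. It thus lay below 1 beyond counting error in each of the 3 classes where it was abundant. At lower levels it went either way. It had 26.6 CPM (27 UMIs) in knockout-labelled and 8.49 CPM (14 UMIs) in control-labelled endothelial-like cells, but 0.610 CPM (3 UMIs) and 2.86 CPM (17 UMIs) in ductal-like cells.

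The 3 remaining classes each had a nuclear ratio of 1.08: endothelial-like (2.70% and 2.51%), pericyte-like and smooth muscle-like (3.11% and 2.88%) and macrophage-like and myeloid-like cells (2.72% and 2.53%). Endothelial-like cells had 7 of 73 members higher and 0 lower (9.38% and 13.4% of all genes), pericyte-like and smooth muscle-like cells 20 of 70 higher and 1 lower (17.0% and 12.4%), and macrophage-like and myeloid-like cells 14 of 71 higher and 2 lower (15.0% and 14.6%). Many of these members had little over 100 UMIs, where counting error alone spans the 25%. In pericyte-like and smooth muscle-like cells Ndufa4 had 349 CPM (111 UMIs) in the knockout-labelled and 207 CPM (130 UMIs) in the control-labelled library, a ratio of 1.69 (1.30 to 2.19). The X-linked Ndufa1, an accessory complex I subunit, had 113 CPM (36 UMIs) and 171 CPM (107 UMIs) there, a ratio of 0.664 (0.442 to 0.977). In macrophage-like and myeloid-like cells Ndufs3, a core complex I subunit, had 160.3 and 92.5 CPM, a ratio of 1.73 (1.22 to 2.49), from 103 and 49 UMIs.

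The mt- members differed less between the libraries than the nuclear members did in acinar-like cells, and not always the same way. In acinar-like cells they took 2.80% of UMIs in the knockout-labelled and 2.36% in the control-labelled library, a ratio of 1.19 (1.17 to 1.20), but without the cluster led by Cela1 they took 2.17% and 2.38%, a ratio of 0.911 (0.897 to 0.924). That cluster had 3.15% in its 416 knockout-labelled cells. Endocrine-like cells had 3.09% and 2.85%, a ratio of 1.09 (1.08 to 1.10), and 3.22% and 3.36% without the cluster led by Ins2, a ratio of 0.956 (0.946 to 0.967). In the other 6 classes the ratio lay between 0.914 (0.892 to 0.935) in pericyte-like and smooth muscle-like cells and, in ductal-like cells, 0.989 (0.982 to 0.996). Ductal-like, mesenchymal-like, endothelial-like, pericyte-like and smooth muscle-like, and macrophage-like and myeloid-like cells thus had a nuclear ratio above 1 and an mt- ratio below 1. Under other settings the mt- ratio reached 1.00 and 1.01 in ductal-like and in mesenchymal-like cells and 1.02 in endothelial-like cells, so its direction there depends on the processing.

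Among the mt- genes the highest ratio in acinar-like cells was that of mt-Co1, the catalytic subunit of complex IV, with 6946 CPM in knockout-labelled and 5038 CPM in control-labelled cells, a ratio of 1.38 (1.34 to 1.42), which was 0.984 (0.953 to 1.02) without the cluster led by Cela1. In pericyte-like and smooth muscle-like cells mt-Co1 had 4618 and 6015 CPM, a ratio of 0.768 (0.722 to 0.816). The complex I gene mt-Nd1 had 1504 and 1647 CPM in acinar-like cells, a ratio of 0.913 (0.868 to 0.961), and 0.797 (0.752 to 0.845) without that cluster. Cytochrome b of complex III (mt-Cytb) had 2821 and 2287 CPM, a ratio of 1.23 (1.18 to 1.29), and 0.883 (0.841 to 0.927) without it. The mt- transcripts therefore did not share a single ratio. The gene mt-Atp8 was below 1 beyond counting error in acinar-like (0.725), ductal-like (0.806), endocrine-like (0.618) and mesenchymal-like cells (0.795), but its reading frame overlaps that of mt-Atp6 on the same transcript, as mt-Nd4l overlaps mt-Nd4, so tags of these pairs cannot be divided with certainty. The only member on the other strand, mt-Nd6, had 341 UMIs in all kept knockout-labelled and 287 UMIs in all kept control-labelled cells.

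**Figure D5:**
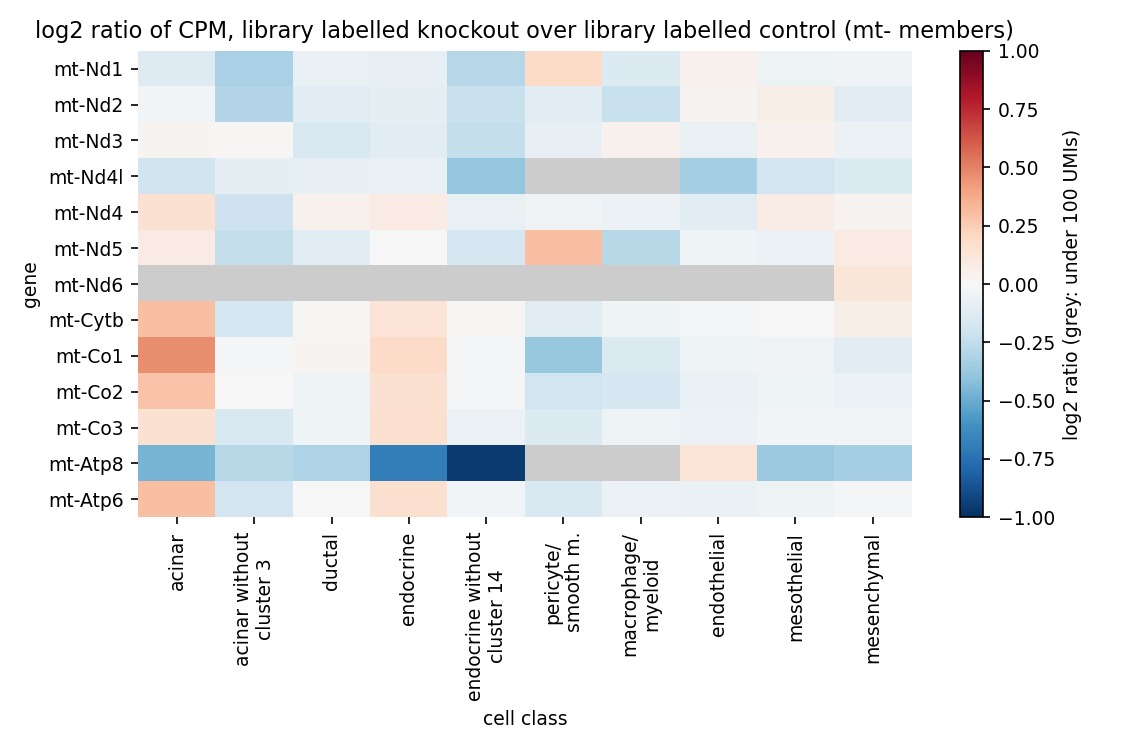
Log2 ratio of CPM, library labelled knockout over library labelled control (colour, from -1 in blue to 1 in red; grey, under 100 UMIs), for the 13 mt- members (rows) in 8 cell classes and in 2 of them with a cluster left out (columns). The red of mt-Co1 (1.38), mt-Cytb (1.23) and mt-Atp6 (1.23) in acinar-like cells is absent without cluster 3, the one led by Cela1, where they stand at 0.984, 0.883 and 0.876.

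Motifs of factors that drive respiratory genes were looked for in the promoters. Of the 83 nuclear members, 66 matched a RefSeq promoter (build GRCm38.p6), and the 250 bases before each start were searched on both strands. Each motif was absent from most of the 66. The NRF1 motif (GCGCA, any base, then GCGC) was present in 13 of the 66 genes (19.7%), against 4.23% of 27025 genes. The core ETS motif CCGGAAG, which GABPA binds, was present in 12 (18.2%), against 7.83%. The YY1 motif AAGATGGC was present in 1 (1.52%), against 1.83%, and the core of the hypoxia response element, ACGTG, in 13 (19.7%), against 18.5%. A match is a description of the letters and not a bound site. Sequences of 4 members, picked after their values were seen, are given 5′ to 3′ in the direction of the gene, with the NRF1 and ETS matches on either strand in capitals. Atp5h, a peripheral stalk subunit of ATP synthase (chr11:115419920-115420169, minus strand), and Cox6a1, the common form of a complex IV subunit (chr5:115348959-115349208, minus strand), hold both motifs. Uqcrh (chr4:116075071-116075320, minus strand) holds an ETS match next to the start, and Cox7a1 (chr7:30183921-30184170, plus strand) holds neither.
Atp5h: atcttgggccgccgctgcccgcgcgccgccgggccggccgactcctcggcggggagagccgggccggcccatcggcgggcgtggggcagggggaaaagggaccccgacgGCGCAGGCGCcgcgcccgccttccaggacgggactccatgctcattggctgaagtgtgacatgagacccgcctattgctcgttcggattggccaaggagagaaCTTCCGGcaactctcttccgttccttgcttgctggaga
Cox6a1: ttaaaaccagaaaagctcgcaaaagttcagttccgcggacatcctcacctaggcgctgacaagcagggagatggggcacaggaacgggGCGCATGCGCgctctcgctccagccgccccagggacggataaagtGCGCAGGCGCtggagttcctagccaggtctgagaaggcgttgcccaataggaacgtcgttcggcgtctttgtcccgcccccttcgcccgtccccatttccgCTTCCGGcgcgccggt
Uqcrh: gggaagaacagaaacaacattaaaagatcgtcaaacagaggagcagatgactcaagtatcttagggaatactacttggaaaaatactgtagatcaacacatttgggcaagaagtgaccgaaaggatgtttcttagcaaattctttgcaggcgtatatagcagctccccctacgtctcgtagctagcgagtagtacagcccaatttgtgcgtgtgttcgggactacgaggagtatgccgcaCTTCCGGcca
Cox7a1: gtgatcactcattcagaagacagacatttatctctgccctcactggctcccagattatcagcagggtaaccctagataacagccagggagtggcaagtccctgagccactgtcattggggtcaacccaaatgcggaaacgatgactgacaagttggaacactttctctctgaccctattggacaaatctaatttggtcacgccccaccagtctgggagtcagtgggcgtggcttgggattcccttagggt
In acinar-like cells Atp5h had 900.4 CPM in the knockout-labelled and 626 CPM in the control-labelled library, a ratio of 1.44 (1.33 to 1.56), and Cox6a1 had 956 and 734 CPM, a ratio of 1.30 (1.21 to 1.41). Without the cluster led by Cela1, Atp5h was at 1.24 (1.14 to 1.36) and Cox6a1 at 1.06 (0.973 to 1.15), and in mesenchymal-like cells they were at 1.06 (1.01 to 1.12) and 0.924 (0.878 to 0.972).

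Genes that assemble or feed the complexes were set beside the members. In acinar-like cells, where 38.6% of all genes were higher and 12.4% lower, 5 of 11 complex I assembly factors (45.5%) were higher and 2 lower, 15 of 29 assembly factors of complexes II to V (51.7%) were higher and 1 lower, and 8 of 14 genes of electron carriers and coenzyme Q synthesis (57.1%) were higher and 0 lower. Mitochondrial ribosomal proteins, which make the mt- subunits, had 35 of 75 (46.7%) higher and 2 lower. Genes of the citric acid cycle and pyruvate dehydrogenase had 9 of 20 (45%) higher and 0 lower, and those of mitochondrial gene expression 5 of 12 (41.7%) and 0. The median log2 ratios of these 6 lists lay between 0.25 and 0.40, beside 0.33 for the nuclear members and 0.19 for all genes. Without the cluster led by Cela1, mitochondrial ribosomal proteins had 24 of 67 higher and 0 lower, against 23.8% and 8.25% of all genes.

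Single genes of these lists with the highest ratios in acinar-like cells were Yy1, a transcription factor of many respiratory genes, at 24.0 and 7.97 CPM, a ratio of 3.01 (1.5 to 7.05), and Ppargc1a, the coactivator of mitochondrial biogenesis, at 21.5 and 7.97 CPM, a ratio of 2.69 (1.34 to 6.32). Both rest on 8 UMIs in the control-labelled library, and without the cluster led by Cela1 the ratio of Yy1 was 3.28 (1.60 to 7.82) and that of Ppargc1a 1.02 (0.455 to 2.56). In ductal-like cells Ppargc1a stood at 13.6 CPM in knockout-labelled and 19.2 CPM in control-labelled cells, a ratio of 0.711 (0.517 to 0.969). Uqcc2, an assembly factor of complex III, had 334 and 246 CPM in acinar-like cells, a ratio of 1.36 (1.19 to 1.55), and 473 and 536 CPM in endocrine-like cells, a ratio of 0.882 (0.818 to 0.951). Mrpl30, a protein of the large mitochondrial ribosomal subunit, had 323 and 192 CPM in acinar-like cells, a ratio of 1.68 (1.45 to 1.95), and 1.47 (upper bound 1.73) without that cluster.

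Ucp2, a mitochondrial carrier of the uncoupling protein family that limits insulin secretion in beta cells, was lower in each epithelial class. It had 42.7 CPM in knockout-labelled and 89.6 CPM in control-labelled acinar-like cells, a ratio of 0.477 (0.379 to 0.605), and 0.614 (0.468 to 0.813) without the cluster led by Cela1. Ductal-like cells had 53.3 and 73.8 CPM, a ratio of 0.722 (0.617 to 0.843), and endocrine-like cells 54.9 and 92.3 CPM, a ratio of 0.595 (0.478 to 0.735). Slc25a5, which exchanges ATP for ADP across the inner membrane, had 1040.3 and 772 CPM in endocrine-like cells, a ratio of 1.35 (1.28 to 1.42) that was 1.10 (1.04 to 1.17) without the cluster led by Ins2, 564 and 477 CPM in ductal-like cells, a ratio of 1.18 (lower bound 1.12), and 597 and 552 CPM in acinar-like cells, a ratio of 1.08 (0.992 to 1.18). In acinar-like cells the list of carriers and membrane proteins that holds both genes had 5 of 13 members (38.5%) higher, close to the 38.6% of all genes, and 1 lower, Ucp2.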

How the data were processed

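The deposited matrices hold raw UMI counts per gene and barcode, made by the authors with Cell Ranger 3.0.0 per the file headers. The submitters' processing notes also name versions 2 and 3 of Seurat and, as builds, mm10 and GRCm38. Each library is 1 sample, so no test was run.

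Barcodes with under 500 detected genes (1465 knockout-labelled, 1290 control-labelled), over 10% mt- UMIs (57 and 63) or a Scrublet doublet call (24 and 22) were left out. Counts per cell were brought to a total of 10000 and logged, 2000 variable genes were reduced to 30 components, and 15 neighbours were clustered by Leiden at resolution 1. The members, the other gene lists, secretory, mt-, ribosomal protein and sex-linked genes were kept out of the variable genes. A class name needed 3 markers among 50 leading genes. UMIs were summed per library and class and divided by the class total. Ratios carry exact conditional binomial intervals at 95%. Their calculation was tried on simulated Poisson counts, which held no variation between cells, animals or libraries and so could not check for it. These intervals cover counting error only.

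The members, gene lists and markers were chosen with earlier results of these data known. Named members were the 3 highest and 3 lowest ratios per class, the 2 with most UMIs per complex, isoform families, Sdh genes, all mt- genes and members under 20 UMIs. Of the other lists the 2 with most UMIs and the 2 furthest from 1 could be named. Atp5h was named after its values were seen. The other settings tried, of which 3 were added after seeing the data, are given in the closing section. Software was matplotlib 3.10.9, scikit-learn 1.9.0, scanpy 1.11.5 with igraph 0.11.9 and leidenalg 0.10.2, SciPy 1.17.1, NumPy 2.4.6 and pandas 2.3.3 under Python 3.11.15.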

Additional observations from a re-analysis of the deposited data

Results flagged for a closer look

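For 3 members the ratio of the knockout-labelled to the control-labelled library was past the threshold in opposite directions in a pair of classes, and in none of them was the difference between classes tested. Cox7a1, the muscle-type complex IV isoform, stood at 1.85 in acinar-like and 0.398 in endocrine-like cells; without the clusters led by Cela1 and by Ins2 it stood at 0.682 and 0.975. Ndufv3, a small subunit of complex I, stood at 1.41 in acinar-like and 0.787 in endocrine-like cells, and at 1.13 and 0.801 without those clusters. The complex IV gene mt-Co1 stood at 1.38 in acinar-like and 0.768 in pericyte-like and smooth muscle-like cells, and at 0.984 in acinar-like cells without the cluster led by Cela1.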

How the results depend on the processing

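All ratios here are those of the library labelled knockout over the library labelled control. Of 176 share ratios recomputed under other settings, 122 stayed within the counting interval of the reported value, 42 moved beyond it and 12 crossed 1; the cause was not tested. Ratios of single members were rescaled in 96 cases by the median gene or by the total free of secretory genes, which shift every gene of a class alike: 85 stayed within the interval and 11 moved beyond it. Leaving out the cluster led by Cela1 did turn single members, Cox7a1 to 0.682 and mt-Cytb to 0.883. No paired analysis was possible because each group is 1 library.

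The acinar-like nuclear ratio of 1.24 was 1.22 with at least 1000 genes per cell, 1.14 with a total free of mt- and secretory genes, 1.09 scaled by the median gene, 1.27 with cells thinned to 2000 UMIs, 1.28 as a mean over cells and 1.12 without the cluster led by Cela1. The endocrine-like one of 1.11 was 0.944 with the total free of secretory genes, 0.937 by the median gene, 1.12 thinned and 1.07 without the cluster led by Ins2. Elsewhere the nuclear ratio was 1.07 by the median gene in ductal-like cells, 1.03 thinned or as a mean over cells in mesenchymal-like cells, and 1.03 thinned and 1.05 as a mean in endothelial-like cells. Pericyte-like and smooth muscle-like cells gave 1.02 with 1000 genes, 1.05 by the median gene and 1.11 thinned, and fell under 50 knockout-labelled cells with at most 20% mt- UMIs or with doublets kept, which gave no value.

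The mt- ratio of acinar-like cells, 1.19, was 1.23 with 1000 genes, 1.17 with at most 20% mt- UMIs, 1.09 with the total free of secretory genes, 1.04 by the median gene, 1.09 thinned, 1.20 or 1.24 with free RNA subtracted by the profile of low or of all barcodes, 1.10 as a mean and 0.911 without the cluster led by Cela1. That of endocrine-like cells was 0.925 with the total free of secretory genes, 0.919 by the median gene, 1.05 thinned, 1.11 with free RNA of all barcodes, 1.04 as a mean and 0.956 without the cluster led by Ins2. That of ductal-like cells was 1.00 with 1000 genes, 0.967 by the median gene, 0.975 thinned, 0.997 or 1.01 with free RNA of low or of all barcodes and 0.958 as a mean. Mesenchymal-like cells gave 1.00 with at most 20% mt- UMIs, 0.982 or 1.01 with free RNA of low or of all barcodes and 0.985 as a mean. Mesothelial-like cells gave 1.00 with at most 20% mt- UMIs, 0.953 thinned and 0.958 as a mean, and endothelial-like cells 0.990 with free RNA of all barcodes and 1.02 as a mean. Pericyte-like and smooth muscle-like cells gave 0.880 with 1000 genes, 0.891 at resolution 2, 0.885 by the median gene and 0.952 as a mean, and macrophage-like and myeloid-like cells 0.862 with at most 20% mt- UMIs and 0.963 with free RNA of all barcodes.

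At a fold of 1.5 the members higher were 10 of 76 in acinar-like (21.0% of all genes), 4 of 70 in pericyte-like and smooth muscle-like (4.02%) and 3 of 71 in macrophage-like and myeloid-like cells (4.63%), and 0 in ductal-like, endocrine-like, mesenchymal-like and endothelial-like cells, and 0 were lower in ductal-like and in macrophage-like and myeloid-like cells and 1 in endocrine-like cells. From 20 UMIs up, 1 was lower in acinar-like, 2 in ductal-like, 2 in mesothelial-like (with 1 higher), 1 in endothelial-like, 3 in pericyte-like and smooth muscle-like and 4 in macrophage-like and myeloid-like cells. By the median gene, acinar-like cells had 14 of 76 higher and 1 lower (25.2% and 22.4% of all genes), endocrine-like cells 2 and 6 of 77 (15.7% and 18.6%), ductal-like cells 2 higher, while 2 were lower in pericyte-like and smooth muscle-like cells. With the total free of secretory genes acinar-like cells had 21 of 76 higher and 1 lower (29.4% and 18.3%), endocrine-like cells 2 and 4 of 77 (16.5% and 18%), and mesothelial-like cells 1 higher. Counts given here without a share of all genes were not set against that share. They show only how the counts move with the setting.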

Other observations

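Cells outside the 8 classes gave values that enter no comparison above. An unnamed cluster that carried haemoglobin and digestive enzyme transcripts at a median of 1534 UMIs in 101 knockout-labelled and 1380 UMIs in 46 control-labelled cells had 3.24% and 3.06% of its UMIs in nuclear subunits, and 3.47% and 4.39% in mt- subunits. An unnamed cluster led by Stmn2, a neuronal gene, held 9 knockout-labelled and 7 control-labelled cells. It gave 3.68% and 4.13% to nuclear subunits and 4.96% and 4.73% to mt- subunits, more mt- transcripts than any of the 8 classes.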
